A study of Apis mellifera with 6 samples.

Results

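Gat-a and GlnS are the honey bee genes for a plasma membrane transporter of the inhibitory transmitter GABA and for glutamine synthetase. They were taken by gene symbol from the RefSeq gene table of the Amel_HAv3.1 assembly, and make up 2 of the 12289 genes with which a deposited transcript could be paired by its exon coordinates. Each has 3 deposited transcripts, 6 in all. The RNA came from the central brain of adult *Apis mellifera* at eclosion, in 3 phenotypes: drones, which are haploid males, and queens and workers, which are the diploid female castes. There were 2 libraries per phenotype, 6 in all, each from a biological replicate pool of 5 brains. A single mother queen had produced every bee, the queens were raised from grafted larvae, and collection took place no later than 1 h after emergence. By the authors' account, optic lobes were removed from every brain, and workers were dissected with care to take out the hypopharyngeal glands. Each library therefore mixes the neurons, glia and other cells of what was left.

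GABA released at inhibitory synapses is cleared by transporters of the sodium- and chloride-coupled family to which Gat-a belongs, and in *Drosophila* the GABA transporter sits on glial cells. Glutamine synthetase joins glutamate to ammonia to make glutamine, which neurons can turn back into glutamate and, through glutamate decarboxylase, into GABA. The transporter and the enzyme therefore act at different steps of the cycle by which transmitter is taken up and remade.

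Levels of a gene are given as CPM, its estimated counts relative to a library total scaled between libraries by TMM, and as TPM, which corrects for the length of each transcript and is the scale on which Gat-a and GlnS can be set against each other. A gene is called changed where the false discovery rate (FDR) of edgeR's quasi-likelihood test, adjusted by the Benjamini-Hochberg method over the 9687 genes tested, was below 0.05. Libraries held between 7685185 (worker replicate 2) and 44373783 (queen replicate 1) estimated counts. The spread was estimated over all 6 libraries, with information shared between genes, so p-values reflect the spread between these pools only. With 2 libraries per phenotype, an exact permutation test for a difference of any kind among the phenotypes could not reach 0.05 for a single gene. In bulk tissue, fewer cells of a type and less RNA per cell cannot be told apart.

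Gat-a was higher in drone and in queen brains than in worker brains, and GlnS was lower in drone brains than in those of either female caste. Gat-a was 1.71-fold higher in drones and 1.49-fold higher in queens than in workers, whereas GlnS in drones was at 0.642 of its worker level and 0.611 of its queen level. The joint test for any difference among the 3 phenotypes was passed by Gat-a (FDR = 5.37e-05) and by GlnS (FDR = 0.00017), as it was by 38.9% of all genes tested. The gene pair thus differed by phenotype in opposite senses when drones were set against workers.

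Gat-a lies on the plus strand of chromosome 1, between positions 24170336 and 24175443 of Amel_HAv3.1, under gene identifier 406071. Drone libraries had 835 and 829 CPM, queen libraries 741 and 706 CPM, and worker libraries 467 and 506 CPM. The ranges of the 3 phenotypes did not overlap. Means were 832 ± 4.25 CPM in drones, 724 ± 24.5 CPM in queens and 486 ± 27.4 CPM in workers (SD, n = 2 each). These values rest on between 3595 and 30097 estimated counts per library.

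GlnS lies on the plus strand of chromosome 6, between positions 16823113 and 16843347, under gene identifier 410066. Drone libraries had 2348 and 2487 CPM, queen libraries 3957 and 3950 CPM, and worker libraries 3598 and 3927 CPM. Both drone libraries lay far below the other 4, while the queen libraries lay only just above the higher of the worker libraries. Means were 2417 ± 98.8 CPM in drones, 3953 ± 5.01 CPM in queens and 3762 ± 233 CPM in workers (SD, n = 2 each), from between 23924 and 160733 estimated counts per library.

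**Figure D1:**
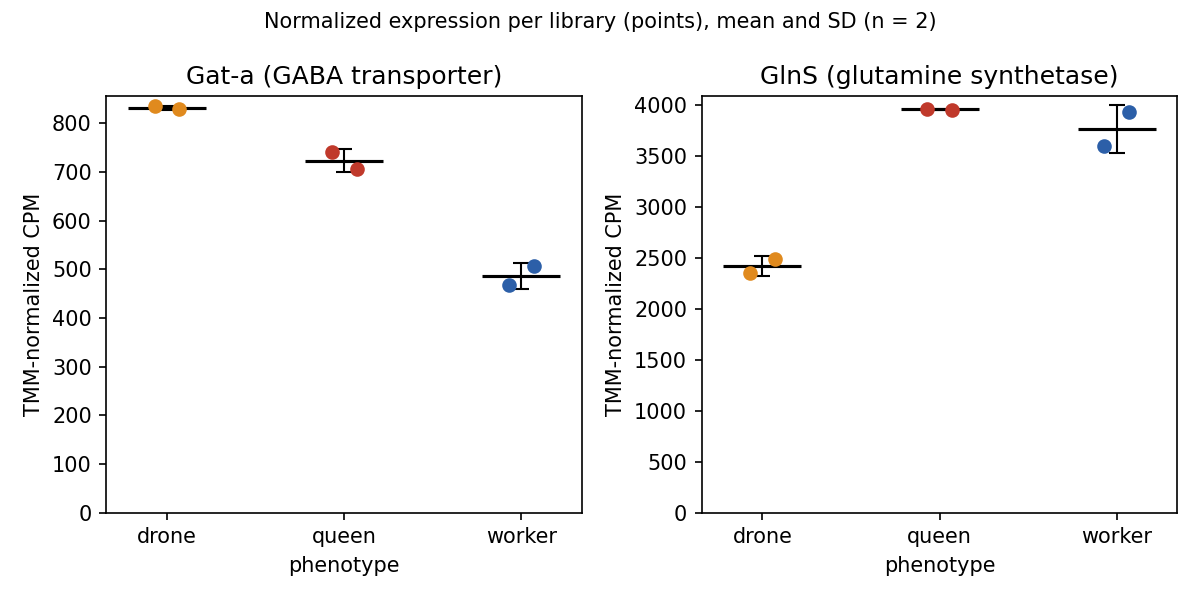
TMM-normalized CPM (vertical axes, from 0) of Gat-a (left) and GlnS (right) in drones, queens and workers. Points are the 2 libraries of a phenotype, thick lines their mean and error bars the SD. Gat-a is at 835 and 829 CPM in drones against 467 and 506 CPM in workers, and GlnS at 2348 and 2487 CPM in drones against 3598 and 3927 CPM in workers.

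Per unit of length GlnS was by far the more abundant transcript. Its TPM was 2443 and 2571 in drones, 5258 and 5453 in queens, and 4429 and 4631 in workers. By mean TPM it ranked 18 among the 12289 genes, at 28 and 27 in the drone libraries, 11 and 9 in the queen libraries and 18 and 17 in the worker libraries. Glutamine synthetase message was therefore among the 28 most abundant of these 12289 genes in every library, and made up between 0.204% and 0.370% of a library's estimated counts. Transcripts not paired with a gene were not ranked. Gat-a had 379 and 366 TPM in drones, 437 and 425 TPM in queens, and 253 and 269 TPM in workers. It ranked 343 by mean TPM and between 247 and 484 in single libraries, with its lowest ranks in both worker libraries.

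Drones were set against workers to compare males with the non-reproductive females. Here 28.6% of all genes tested were called, 13.4% as higher and 15.1% as lower in drones. Gat-a rose by a log2 fold change of 0.78 (SE 0.07, 95% interval 0.61 to 0.94, FDR = 2.92e-05, edgeR). GlnS fell by 0.64 on the log2 scale (SE 0.08, 95% interval of the change -0.82 to -0.45, FDR = 0.000277, edgeR). Both calls held under all 19 alternatives run, from 0.51 to 0.99 for Gat-a and from -0.85 to -0.57 for GlnS.

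Queens were set against workers to compare the reproductive with the non-reproductive female caste. Of all genes tested 22.3% were called, 11.9% as higher and 10.4% as lower in queens. Gat-a rose by a log2 fold change of 0.57 (SE 0.07, 95% interval 0.41 to 0.74, FDR = 0.000354, edgeR). GlnS did not pass the test, with a log2 fold change of 0.07 (SE 0.08, FDR = 0.585, edgeR). Its 95% interval, -0.11 to 0.26, leaves room for a GlnS difference of either sign between the female castes but not for one of the size seen between drones and workers. The log2 fold change of GlnS was -0.0047 without worker replicate 1, and on log2(TPM + 1) with limma it was 0.24 (FDR = 0.0474), where the median of all genes was itself at 0.14.

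Drones were set against queens to compare the reproductive sexes. Of all genes tested 30.7% were called, 13.8% as higher and 16.9% as lower in drones. GlnS fell by 0.71 on the log2 scale (SE 0.08, 95% interval of the change -0.90 to -0.52, FDR = 0.000112, edgeR), and was called lower under all 19 alternatives run, from -1.09 to -0.65. Gat-a, at a log2 fold change of 0.20 (SE 0.07, 95% interval 0.04 to 0.36), just missed the threshold (FDR = 0.0599, edgeR). This call depended on the settings, since Gat-a was called higher in drones under 9 of 19 alternatives, and on log2(TPM + 1) it was lower in drones, at -0.21 (FDR = 0.0204, limma), where the median of all genes was at -0.28. Relative to the median of all genes Gat-a lay 0.20 higher in drones on counts under each of 4 scalings and 0.07 higher on TPM.

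The scaling between libraries moved the balance of calls over all genes. On library totals alone, 33.4% of the calls between drones and workers and 32.6% of those between drones and queens were of higher genes, against 47.0% and 44.9% with TMM. On log2(TPM + 1) these shares were 25.5% and 16.1%, and between queens and workers 72.9%, against 53.5% with TMM. The median log2 fold change of all genes shifted to -0.11 for drones relative to workers and -0.12 for drones relative to queens on library totals. Set against that median, the log2 fold change of GlnS for drones relative to workers was between -0.66 and -0.65 under the 4 scalings of counts and -0.71 on TPM.

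The ratio of GlnS to Gat-a does not depend on how libraries are scaled to each other. In TPM it was 6.44 and 7.03 in drones, 12.0 and 12.8 in queens, and 17.5 and 17.2 in workers. The 3 phenotypes did not overlap, and glutamine synthetase message per transporter message was thus lowest in drones, intermediate in queens and highest in workers. Means were 6.73 ± 0.411 in drones, 12.4 ± 0.572 in queens and 17.4 ± 0.167 in workers (SD, n = 2 each). An exact permutation test over the 6 libraries gave p = 0.0667, which is the smallest p that the 15 distinct arrangements allow. With estimated counts divided by the length of the longest transcript in place of TPM, the mean ratio was 5.86 in drones, 11.0 in queens and 15.6 in workers, in the same order.

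**Figure D2:**
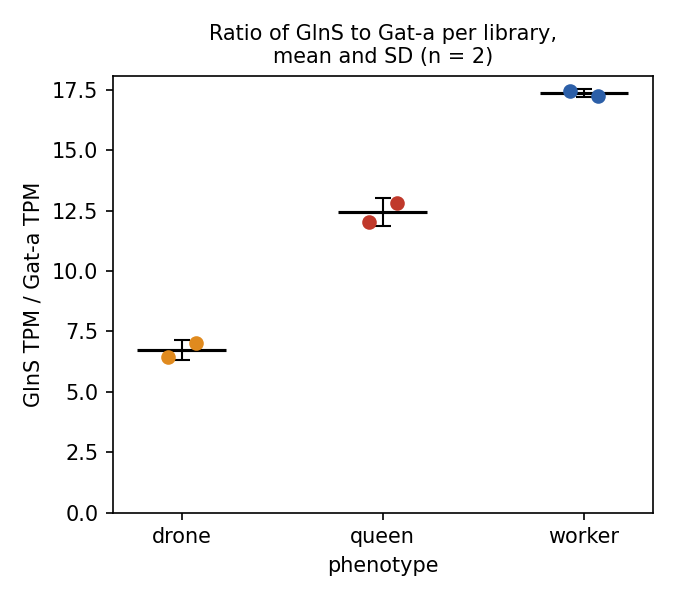
Ratio of GlnS TPM to Gat-a TPM (vertical axis, from 0) in drones, queens and workers. Points are the 2 libraries of a phenotype, thick lines their mean and error bars the SD. The ratio is 6.44 and 7.03 in drones, 12.0 and 12.8 in queens and 17.5 and 17.2 in workers.

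Each gene was next resolved into its transcripts. For Gat-a, G1 (deposited target 3276) and G2 (target 3277) open in nearly the same place, 24170336 and 24170411, and G3 (target 3278) opens at 24171000 with a starting exon of its own. All 3 have 9 exons and share 1946 nt. G2 alone carries the long last exon that runs to 24175443, and 755 nt of it are in neither of the others, against 303 nt for G1 and 559 nt for G3. For GlnS, S1 (target 12977) has 2 exons, S2 (target 12978) has 3, and S3 (target 12979) replaces the opening exon with one of 333 nt that starts at 16833243. No nucleotide of S2 lies outside S1 and S3. It is set apart by read pairs that join its first exon to its second, a link that neither S1 nor S3 has. Shares therefore rest on how Kallisto divided the reads.

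G2 was the most abundant Gat-a transcript in each library. Its TPM was 210 and 227 in drones, 232 and 231 in queens, and 139 and 133 in workers. It held 63.3 ± 4.51% of the gene's estimated counts in drones, 58.7 ± 0.871% in queens and 56.9 ± 3.84% in workers (SD, n = 2 each), and differences between these shares were not tested. Tested on its own beside 17001 transcripts, G2 was called in all 3 contrasts. It was higher in drones than in workers (log2 fold change 0.99, SE 0.06, FDR = 0.00163, edgeR), where 10.5% of transcripts were called (5.46% higher, 5.06% lower), and higher in queens than in workers (0.63, SE 0.06, FDR = 0.00815), where 5.99% were called (3.31% higher, 2.68% lower). It was also higher in drones than in queens (0.37, SE 0.06, FDR = 0.0215), where 11.2% were called (5.07% higher, 6.15% lower), although on TPM its libraries lay slightly lower in drones than in queens.

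G1 and G3 gave the same direction with wider spread. G1 had 114 and 95.4 TPM in drones, 137 and 136 TPM in queens, and 75.2 and 97.6 TPM in workers, with overlap between drones and workers. G3 had 54.9 and 43.8 TPM in drones, 67.9 and 57.7 TPM in queens, and 39.4 and 38.1 TPM in workers. Neither was called in any contrast by edgeR. The log2 fold changes for drones relative to workers were 0.59 for G1 (FDR = 0.112) and 0.66 for G3 (FDR = 0.0959).

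S2 carried most of the GlnS signal. Its TPM was 1729 and 1860 in drones, 4173 and 4135 in queens, and 3273 and 3568 in workers. It held 73.2 ± 1.02% of the gene's estimated counts in drones, 79.0 ± 2.37% in queens and 77.0 ± 2.10% in workers (SD, n = 2 each). On the log2 scale S2 fell in drones relative to workers by 0.65 (SE 0.07, FDR = 0.0084, edgeR) and relative to queens by 0.77 (SE 0.07, FDR = 0.00438), and between queens and workers the log2 fold change was 0.12 (FDR = 0.423).

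S1 had 704 and 687 TPM in drones, 1068 and 1290 TPM in queens, and 1147 and 1056 TPM in workers. Its drone libraries were the lowest of the 6, but it passed in no contrast, at log2 fold changes of -0.38 for drones relative to workers (FDR = 0.0695, edgeR) and -0.31 for drones relative to queens (FDR = 0.114). S3, with the alternative opening exon, was scarce throughout, at 10.1 and 24.3 TPM in drones, 17.3 and 27.8 TPM in queens, and 8.68 and 6.64 TPM in workers. S3 made up at most 1.10% of the gene's counts in any library. It was not called, and its log2 fold change of 1.43 for drones relative to workers had a 95% interval of 0.16 to 2.70 (FDR = 0.158), of the opposite sign to S1 and S2.

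**Figure D3:**
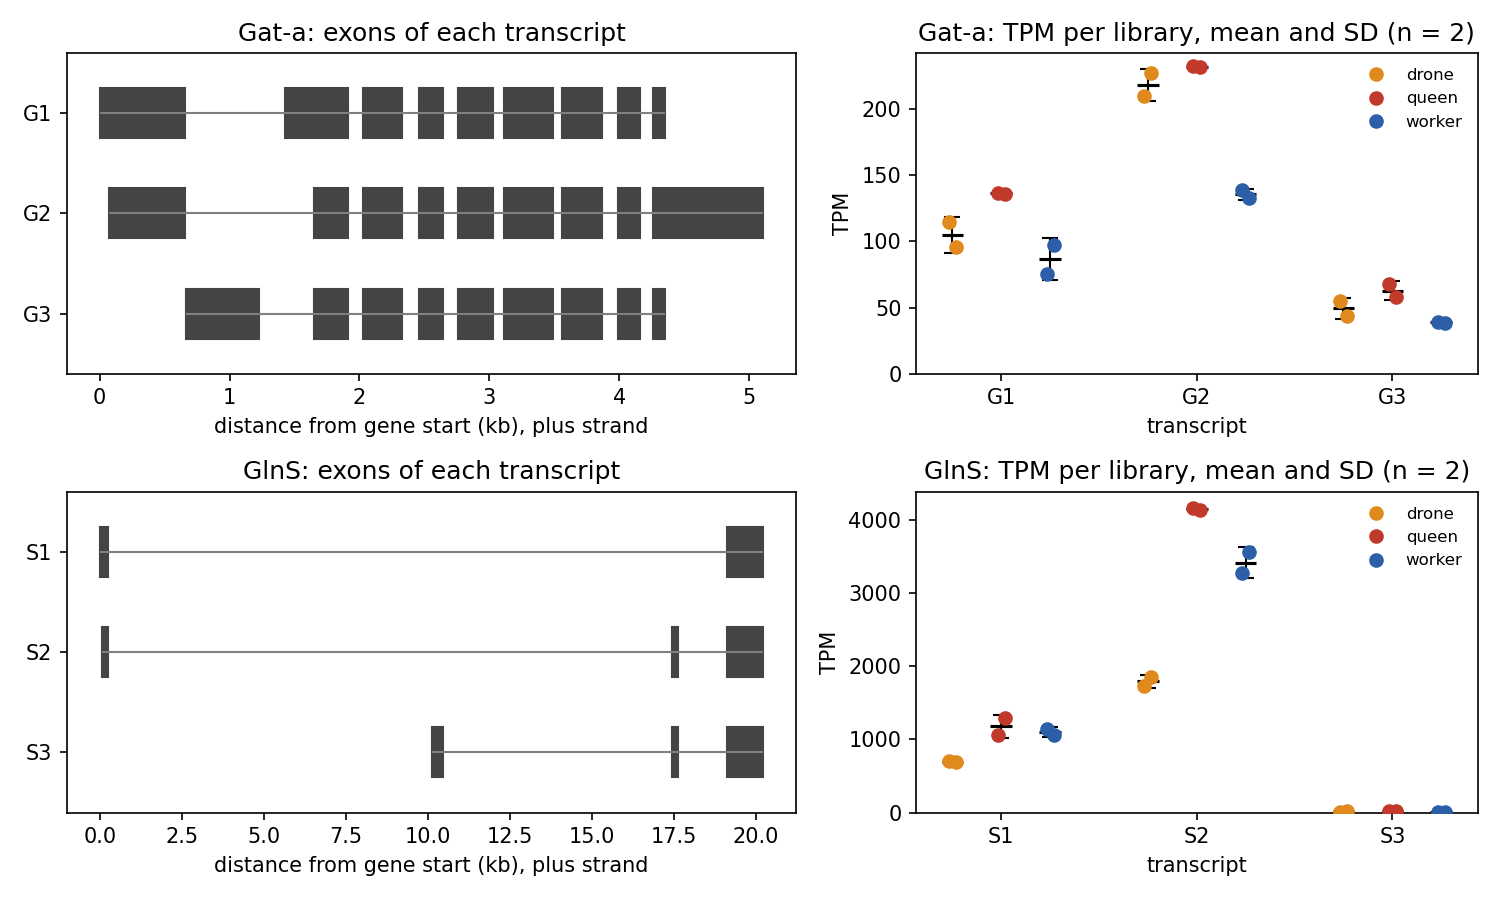
Left, exons (boxes) and introns (lines) of the 3 Gat-a transcripts G1 to G3 and the 3 GlnS transcripts S1 to S3, against distance from the gene's start in kb. Right, TPM of each transcript (from 0) in drones, queens and workers, with points for libraries, thick lines for means and bars for the SD (n = 2). G2, at 210 and 227 TPM in drones against 139 and 133 TPM in workers, and S2, at 1729 and 1860 TPM in drones against 3273 and 3568 TPM in workers, lie highest within their genes.

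The genes next to Gat-a and GlnS were examined because reads can be shared where genes overlap. No gene shared exon sequence with either of them. A long noncoding RNA gene on the opposite strand, LOC102656430, overlaps the GlnS span by 1961 nt with 0 nt of exon overlap and had between 3 and 62 estimated counts per library, and it was not called in any contrast. None of the 4 genes around Gat-a (LOC552426, LOC551960, LOC100577450 and LOC410080) was called. Downstream of GlnS by 1428 nt and on the other strand, LOC413781 had log2 fold changes of -0.76 for drones relative to workers (FDR = 0.00821, edgeR) and -0.84 for drones relative to queens (FDR = 0.00339). The values of GlnS there were -0.64 and -0.71, and LOC413781, like GlnS, was not called between queens and workers (0.08, FDR = 0.763). The next gene along, LOC413782, was called higher in queens than in workers (0.54, FDR = 0.00221) and lower in drones than in queens (-0.31, FDR = 0.0259).

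Of the wider GABA list, 4 of 12 genes were matched in the gene table by symbol or synonym, and of the glutamate and glutamine list 6 of 14. Leaving out Gat-a and GlnS, 8 genes remained. Of these 8, 1 was called higher and 1 lower in drones relative to workers, 3 higher and 1 lower in queens relative to workers, and 0 higher and 2 lower in drones relative to queens. Over all genes tested the shares called higher and lower were 13.4% and 15.1%, 11.9% and 10.4%, and 13.8% and 16.9% in those comparisons, so that 1 of the 8 is close to the background. On so few genes, the 2 of the 8 lower in drones than in queens are close to it as well. The 3 of the 8 higher in queens than in workers lie above it. Of those 3, the calls of LCCH3 and GluCl were lost under 11 and 9 of 18 alternatives. The median log2 fold changes of the 8 were 0.66, 1.55 and -0.03 in the 3 comparisons, beside 0.01, 0.03 and -0.0030 over all genes tested, with the fitted values of Glurb included. Most of the 8 were far scarcer than Gat-a and GlnS, at under 36 CPM in every library except for Nmdar1.

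Among genes that take up transmitter, Gat-1B, matched as a further GABA transporter, had 2.79 and 1.56 CPM in drones, 2.34 and 2.27 CPM in queens, and 1.15 and 1.69 CPM in workers. Of these 2 genes Gat-a thus held nearly all of the signal, and Gat-1B was not called (log2 fold change 0.70 for drones and 0.73 for queens relative to workers, FDR = 0.278 and 0.270, edgeR). Eaat-2, of the excitatory amino acid transporter family, was uneven between replicates, with 10.9 and 2.08 CPM in drones, 3.94 and 8.56 CPM in queens, and 2.05 and 1.97 CPM in workers. Its log2 fold change for drones relative to workers, 1.76 (FDR = 0.0828, edgeR), was 0.048 without drone replicate 1, and 2.43 and called without drone replicate 2.

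On the side of GABA reception, the measured genes were the ligand-gated channel subunits Grd and LCCH3. LCCH3 had 2.25 and 0.83 CPM in drones, 1.58 and 1.76 CPM in queens, and 0.41 and 0.42 CPM in workers. It was called higher in drones (log2 fold change 1.97, FDR = 0.0408, edgeR) and in queens (1.99, FDR = 0.0462) than in workers, but the worker values are 5 and 3 estimated counts. The LCCH3 calls were lost under 13 and 11 of 18 alternatives. That for drones was lost without any 1 library except drone replicate 2, with a log2 fold change of 0.996 without drone replicate 1 and of 1.98 to 1.99 without a worker or queen library. That for queens was lost without any 1 worker or queen library, at 1.90 to 2.03. Grd had 2.19 and 0.94 CPM in drones, 0.44 and 1.06 CPM in queens, and 1.23 and 1.13 CPM in workers, and was not called.

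Among glutamate receptors, Nmdar1, which encodes the subunit required in every NMDA receptor, was the one measured at a level near that of Gat-a. It had 290 and 311 CPM in drones, 437 and 421 CPM in queens, and 516 and 560 CPM in workers, with no overlap between phenotypes. On the log2 scale Nmdar1 fell in drones relative to workers by 0.84 (SE 0.07, FDR = 1.97e-05, edgeR), in queens relative to workers by 0.33 (SE 0.07, FDR = 0.0108) and in drones relative to queens by 0.51 (SE 0.07, FDR = 0.000467). Nmdar1 and GlnS were thus both lower in drones than in either female caste, while between queens and workers only the Nmdar1 difference passed the test, and that call was lost without worker replicate 2 (-0.27) and on log2(TPM + 1) (-0.12).

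mGlutR1, a metabotropic glutamate receptor, stood out in queens. It had 4.07 and 3.33 CPM in drones, 10.5 and 11.1 CPM in queens, and 4.09 and 3.52 CPM in workers. It was higher in queens than in workers (log2 fold change 1.49, SE 0.25, FDR = 0.00195, edgeR) and lower in drones than in queens (-1.52, SE 0.24, FDR = 0.000818). Both mGlutR1 calls were lost for its most abundant transcript tested alone (2.48, FDR = 0.507, and -3.74, FDR = 0.311). GluCl, a glutamate-gated chloride channel, had 15.7 and 4.89 CPM in drones, 14.8 and 35.8 CPM in queens, and 6.71 and 7.46 CPM in workers. Its call between queens and workers (1.83, SE 0.52, FDR = 0.0323) was lost under 9 of 18 alternatives, among them the fits without queen replicate 2 (1.07), worker replicate 1 (1.73) and worker replicate 2 (1.90). Like Eaat-2, GluCl was highest in drone replicate 1 and queen replicate 2, a split between replicates that Gat-a and GlnS did not show. Glurb was at 0 counts in drone replicate 2 and worker replicate 2 and was not called, and its fitted fold changes are no measure of size.

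**Figure D4:**
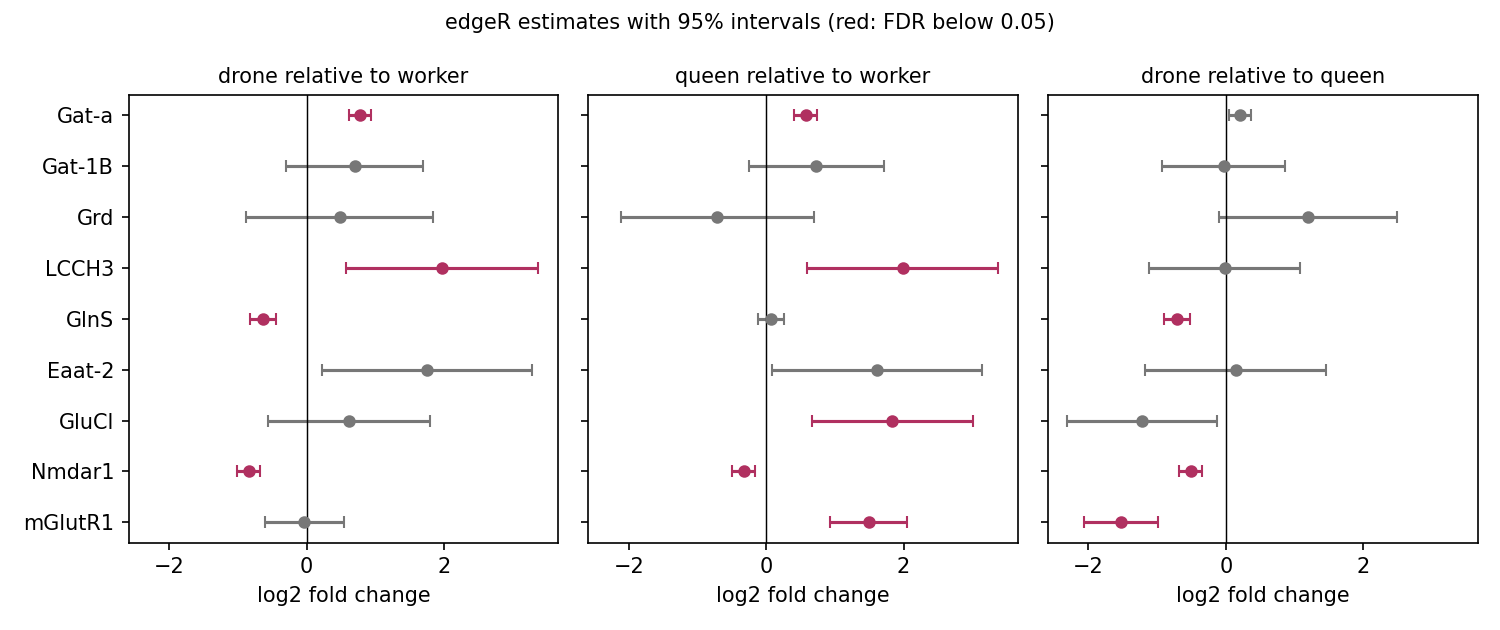
Log2 fold changes (horizontal axes) of Gat-a, GlnS and the 7 other matched pathway genes besides Glurb, from edgeR, for drone relative to worker, queen relative to worker and drone relative to queen. Points are estimates, bars 95% intervals, and red marks an FDR below 0.05. The intervals of Gat-a and GlnS are narrow, with Gat-a at 0.78 and GlnS at -0.64 for drones relative to workers, and those of the scarce genes are wide.

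Genes with profiles most like those of Gat-a and GlnS were found by the root mean square difference of log2 CPM over the 6 libraries, each profile centred on its own mean, among 286 genes with a name. For Gat-a the nearest were Ppib (0.15), Fstl5 (0.16), Cryl1 (0.16), Fabp (0.18) and Arp1 (0.18). Each of the 5 had its highest mean CPM in drones and its lowest in workers, and Cryl1, at log2 fold changes of 1.14 for drones and 0.71 for queens relative to workers, showed a wider range than Gat-a. For queens relative to workers, Ppib, Fstl5, Fabp and Arp1 were at 0.24, 0.19, 0.18 and 0.14, against 0.57 for Gat-a. These 4 were not called there (FDR = 0.0526, 0.0753, 0.111 and 0.234, edgeR). All 5, unlike Gat-a, were called higher in drones than in queens. Nearer matches were found for GlnS, in Y-f (0.05), TyHyd (0.08), Err (0.08), Tpi (0.10) and Abscam (0.11). TyHyd encodes tyrosine hydroxylase of dopamine synthesis, Err a nuclear receptor and Tpi a glycolytic enzyme. Y-f, of the yellow gene family, had 920 and 982 CPM in drones, 1546 and 1511 CPM in queens, and 1470 and 1437 CPM in workers. The nearest genes were picked on these same 6 libraries, so their likeness to Gat-a or GlnS is no separate result. The difference between Gat-a and GlnS themselves was 0.59. Over all genes tested, 213 (2.20%) had the calls of Gat-a, higher in drones and in queens than in workers with no call between drones and queens, and 582 (6.01%) had those of GlnS, lower in drones than in both female castes with no call between these.

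Markers of other tissues and cells differed by phenotype beside these results. None of the 10 listed glia markers was matched in the gene table, so glial content was not measured here, and 4 of 11 neuron markers were matched (brp, Syt1, Syx1A and Para). The summed TPM of those 4 was 117 to 141 in drones, 299 to 302 in queens and 182 to 222 in workers, an order set by brp, a presynaptic active zone protein that made up most of the sum. Para had 7.63 and 7.32 TPM in drones, 8.12 and 8.94 TPM in queens, and 11.3 and 14.0 TPM in workers, and Syt1 and Syx1A overlapped between drones and workers. On counts brp was lower in drones than in workers (log2 fold change -0.42, FDR = 0.0163, edgeR) and higher in queens than in workers (0.48, FDR = 0.0101). Of the 4, 0 were higher and 1 was lower in drones relative to workers, 1 was higher and 1 lower in queens relative to workers, and 0 were higher and 1 was lower in drones relative to queens. Of all genes tested 28.6%, 22.3% and 30.7% were called in either direction in those comparisons. The 1 of 4 called in each comparison with drones is close to that background. Between queens and workers the share was above it, with 1 gene in each direction, but on only 4 genes.

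Worker libraries, where Gat-a was lowest, held the 6 hypopharyngeal gland markers at a summed TPM of 23304 to 23673, against 6.77 to 10.2 in drones and 12.8 to 14.3 in queens. Care had been taken to remove these glands from workers, and the source of this signal was not tested. The 4 matched photoreceptor markers summed to 1900 to 2090 TPM in drones, 579 to 619 TPM in queens and 4393 to 4539 TPM in workers, but their members ran opposite ways. Blop had 841 and 914 TPM in drones against 171 and 169 TPM in workers, and Lop1 had 1057 and 1176 TPM in drones against 4363 and 4220 TPM in workers. The sums of the 5 cuticle markers, mostly Apd-1 and Apd-3, were 7864 to 8487 TPM in drones, 2239 to 2381 TPM in queens and 4473 to 5168 TPM in workers. The 6 muscle markers summed to 135 to 148 TPM in drones, 1604 to 1620 TPM in queens and 240 to 293 TPM in workers. The 6 fat body markers summed to 1494 to 1581 TPM in drones, 1224 to 1233 TPM in queens and 1184 to 1299 TPM in workers, nearly all of it Tsf1. Another fat body marker, Vg, had 0.15 and 0 TPM in drones, 8.79 and 23.6 TPM in queens, and 0.024 and 0 TPM in workers. Hex70c ran the other way between drones and queens, with a higher TPM in both drone libraries than in any queen or worker library. Of the 6 fat body markers, 3 were called higher and 2 lower in drones relative to queens. The haemocyte marker PPO was at 11.8 to 11.9 TPM in drones, 24.8 to 25.6 TPM in queens and 40.0 to 43.5 TPM in workers. No matched marker of these lists was at 0 in every library. Without the 10 most abundant genes every call of Gat-a and GlnS held, and Gat-a also passed between drones and queens (0.24). That alternative bears on the scaling and the fit, and does not remove any tissue's RNA from Gat-a or GlnS. The part of these tissues in the Gat-a and GlnS results was not tested.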

How the data were processed

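Kallisto, whose version is not given in the sources used here, was run by the authors in strand-specific mode against EnsemblMetazoa transcripts of Amel_HAv3.1. Estimated counts, as deposited, are not normalized. TPM values, as deposited, were corrected by the authors' run for transcript length and set to a common total. The members and lists were chosen with earlier results of these data known.

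Exon coordinates paired 28232 of 28409 deposited transcripts with RefSeq genes of the same assembly. The other 177, with 7.26% to 10.4% of a library's counts, were left out. Counts were summed per gene and rounded, and genes reaching 5 counts in 3 or more of the 6 libraries were tested with edgeR 4.0.16 in R 4.3.3 (TMM, quasi-likelihood fit over all libraries, phenotype the only factor, Benjamini-Hochberg adjustment, threshold 0.05). Alternatives used DESeq2 1.42.0 and limma 3.58.1 on log2(TPM + 1), other scalings and filters, single transcripts, thinning, and each library left out.

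Genes named were Gat-a and GlnS, listed GABA and glutamate genes and markers found by symbol or synonym, neighbours of Gat-a and GlnS, and for each of both the 5 nearest profiles with a mean of at least 1 CPM. Between same-numbered replicates, deviations from the phenotype means correlated at -0.02 (drones and workers), -0.02 (queens and workers) and -0.32 (drones and queens) across genes, so replicate numbers were not taken as pairs.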

Additional observations from a re-analysis of the deposited data

How the results depend on the processing

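The calls of Gat-a in drones and in queens relative to workers, and of GlnS in drones relative to workers and to queens, held under all 19 alternatives. Between drones and queens, Gat-a passed the threshold with DESeq2 (0.23), with 10 counts in every library (0.21), for its most abundant transcript alone (0.37), after thinning (0.25), without the 10 most abundant genes (0.24) and with only these phenotypes in the fit (0.25). It was reversed on log2(TPM + 1) (-0.21), and ran from 0.19 to 0.29 with each library left out. Among those fits it passed without worker replicate 1 (0.25), worker replicate 2 (0.20) or queen replicate 1 (0.29). It did not pass without queen replicate 2 (0.19), drone replicate 1 (0.19) or drone replicate 2 (0.21). GlnS between queens and workers passed on log2(TPM + 1) (0.24) and ran from -0.0047 to 0.13 with each library left out.

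Tests of single transcripts called 1789 (drones and workers), 1019 (queens and workers) and 1907 (drones and queens), against 2766, 2157 and 2977 genes, and with each library left out the queen and worker count ran from 1275 to 2519, being 1304 without worker replicate 1, 1332 without queen replicate 1 and 1275 without queen replicate 2. With the replicate block, 2266, 1686 and 2457 genes were called and no call of Gat-a or GlnS changed, while those of LCCH3 and GluCl were lost (FDR = 0.0796 and 0.0721 for LCCH3, 0.0534 for GluCl, edgeR). With the drone numbers crossed, an alternative chosen after seeing the data, 3247 genes were called between drones and queens. The ratio of GlnS to Gat-a per kb of the longest transcript was 5.86 in drones, 11.0 in queens and 15.6 in workers.

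Reversals among the scarce genes, for which the cause was not tested, were as follows. For drones relative to queens, Eaat-2 was at -0.50 on log2(TPM + 1), -0.61 for its most abundant transcript, -0.051 with the replicate block, and from -1.57 to 0.83 with each library left out. Gat-1B was at 0.0012 with DESeq2's size factors, 0.0036 unfiltered, 0.011 with 10 counts in every library, 0.81 for its most abundant transcript, 0.0033 on counts scaled from TPM, 0.25 after thinning, 0.0063 without the 10 most abundant genes, 0.0196 with only these phenotypes, and from -0.57 to 0.28 with each library left out. LCCH3 was at 0.0184 with DESeq2's size factors, 0.0223 unfiltered, 0.022 without the 10 most abundant genes, 0.0617 on counts scaled from TPM, 0.16 after thinning, 0.0388 with only these phenotypes, and from -1.004 to 0.44 with each library left out. Glurb was at -0.0816 on log2(TPM + 1) and -0.32 with the replicate block. For drones relative to workers, mGlutR1 was at 0.0166 unfiltered, 0.0195 with 10 counts in every library, and from -0.20 to 0.13 with each library left out. Without drone replicate 1, GluCl was at -0.52 and Grd at -0.33. Their ranges with each library left out were -0.52 to 1.16 for GluCl and -0.33 to 0.89 for Grd. For queens relative to workers, Grd was at 0.37 for its most abundant transcript.

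Depth limits LCCH3, Grd, Gat-1B and Glurb, whose worker libraries held at most 15 estimated counts, and not Gat-a or GlnS. With 2 pools per phenotype from 1 mother queen, nothing here measures the spread between colonies. Transcript shares rest on Kallisto's division of shared reads.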
